A study of Homo sapiens with 4 samples.

Results

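Genes that were expressed in FOXA2-inducible human fibroblasts before induction, and whose value lay near the floor of detection afterwards, were taken from the deposited expression table. A gene was included at 3 FPKM or more in the uninduced column and under 1 FPKM in the induced column. FPKM, a density of fragments per length of transcript and per size of the library, is the unit of both. The 42 genes were thus chosen by the 2 deposited FPKM values themselves. Rows on chromosome Y and rows with symbols of named families, such as histones, collagens, HOX, FOX and ZNF genes and small or clone-named RNAs, were left out. This gave 42 genes of the 63651 rows in the table, and of the 10109 rows that were at 3 FPKM or more uninduced under the same exclusions. The size and the direction of their difference are a description and were not tested.

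The cells were derived as clones from BJ-5ta, human foreskin fibroblasts immortalised with telomerase, and carry a doxycycline-inducible FOXA2; whether all samples are 1 clone, and how long induction lasted, is not stated in the labels. The labels give 2 uninduced samples, with no doxycycline, and 2 induced samples, given doxycycline at 0.5 µg/ml. All samples share the transgene, basic fibroblast growth factor in the medium, and selection with hygromycin B and puromycin. Mimosine, which stops cells in G1, was used overnight on cultures that the labels do not specify, and no sample with doxycycline but without the transgene was used here. Each group has a single column in the table, with lower and upper confidence bounds, so no SD, n or p-value is given, and a gene is said to fall only when its deposited intervals do not overlap. FOXA2, the induced gene, was at 4.82 FPKM (bounds 0.526 and 9.12) and rose to 104 FPKM (50.2 and 158).

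The protein is a pioneer factor with a forkhead domain, able to reach its DNA words on nucleosomes, and acts in the forming gut and the liver. Fibroblasts are mesenchymal cells that make connective tissue, and a cultured fibroblast also expresses many genes at low levels that are better known from other tissues. Gene promoters fall into broad classes: those rich in the dinucleotide CpG belong mostly to widely expressed genes, and those poor in CpG, often with a TATA box shortly before the start, belong more often to genes expressed in particular tissues or states.

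Of the genes with a RefSeq entry, the 4 with the highest uninduced level were taken, and their promoters are shown. Each runs 5′ to 3′ from 250 bases before the RefSeq start to 50 after it, in GRCh38.p14, and the capitals mark the words searched for. In ESM1 (chr5:54985544-54985843, minus strand) they mark a TATA box. In VGF (chr7:101165520-101165819, minus strand) they mark the cAMP response element TGACGTCA and a TATAAA on the opposite strand. In LYPD6B (chr2:149077272-149077571, plus strand) they mark the word TTTGAA, known as the cell cycle homology region, and a TATAAA on the opposite strand. MARCH3 (chr5:127030509-127030808, minus strand) held none of the words.
ESM1: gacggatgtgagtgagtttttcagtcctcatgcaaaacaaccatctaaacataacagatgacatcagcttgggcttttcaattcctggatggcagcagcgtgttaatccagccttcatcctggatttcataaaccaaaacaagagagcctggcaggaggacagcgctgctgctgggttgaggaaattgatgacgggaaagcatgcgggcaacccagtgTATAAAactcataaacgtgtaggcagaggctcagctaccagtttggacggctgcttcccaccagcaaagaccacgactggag
VGF: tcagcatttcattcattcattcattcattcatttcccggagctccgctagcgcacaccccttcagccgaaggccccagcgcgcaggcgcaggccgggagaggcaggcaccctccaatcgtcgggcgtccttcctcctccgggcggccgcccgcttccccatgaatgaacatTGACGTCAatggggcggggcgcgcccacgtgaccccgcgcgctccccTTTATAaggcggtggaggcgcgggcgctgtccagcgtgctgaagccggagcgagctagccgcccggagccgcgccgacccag
MARCH3: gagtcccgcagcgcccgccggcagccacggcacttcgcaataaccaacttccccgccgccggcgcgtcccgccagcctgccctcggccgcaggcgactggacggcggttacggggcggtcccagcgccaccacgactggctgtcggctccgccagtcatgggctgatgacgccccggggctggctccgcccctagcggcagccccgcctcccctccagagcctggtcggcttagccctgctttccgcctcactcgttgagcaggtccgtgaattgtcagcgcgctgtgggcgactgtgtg
LYPD6B: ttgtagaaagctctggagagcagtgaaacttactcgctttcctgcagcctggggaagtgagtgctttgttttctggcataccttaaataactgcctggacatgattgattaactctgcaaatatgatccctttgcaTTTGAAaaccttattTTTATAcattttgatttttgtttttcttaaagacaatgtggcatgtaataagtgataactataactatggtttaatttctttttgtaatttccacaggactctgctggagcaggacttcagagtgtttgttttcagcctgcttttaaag

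In the stretches shown, the CpG observed to expected ratio was 0.440 for ESM1 and 0.102 for LYPD6B, both CpG-poor, against 1.03 for VGF and 0.913 for MARCH3. The deposited rows list 3 starts for ESM1, 2 for VGF, 5 for MARCH3 and 10 for LYPD6B. Each stretch belongs to 1 RefSeq start and, above all in LYPD6B, may not be the promoter used in these cells. RefSeq promoters could be matched for 30 of the 42 genes, or 71.4%, which is under the 80% needed for a check over the whole set, so a promoter comparison over all 42 is void. The shares that follow describe those 30 alone. Of these, 8 promoters, or 26.7%, had a CpG ratio of 0.6 or more. Among all expressed genes with an entry the share was 87.1% (7183 of 8248), and among those at 3 to 10 FPKM uninduced, the range of most of the 42 genes, it was 82.0% (1429 of 1743). If every one of the 12 unmatched genes were counted as CpG-rich, the share would be 20 of 42, or 47.6%. Expressed genes without an entry were not counted in this way, so that share is not compared with theirs.

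The word TATAAA, searched on both strands like all words here, was in 9 of the 30 promoters, or 30%, against 5.05% at 3 to 10 FPKM uninduced, 4.89% of all expressed genes and 12% of all 27305 promoters in the table. In 6 of the 30, or 20%, it began between 25 and 35 bases before the start, where a TATA box lies, against 1.61% at 3 to 10 FPKM and 1.70% of all expressed genes. This window was not fixed in advance but chosen after sequences had been seen, so the share is a description only. These 6 stretches, from 41 to 12 bases before the start, are shown with the word in capitals. In VGF it reads on the opposite strand, and in KISS1 it reads on both strands, overlapping itself. Their positions are chr5:54985605-54985634 for ESM1, chr7:101165581-101165610 for VGF, chr1:204196503-204196532 for KISS1, chr17:41382318-41382347 for KRT34, chr19:35757041-35757070 for HSPB6 and chr4:73436180-73436209 for AFP, the last on the plus strand and the others on the minus strand.
ESM1: aacccagtgTATAAAactcataaacgtgta
VGF: gcgctccccTTTATAaggcggtggaggcgc
KISS1: caccccgggcTTTATAAAagggatgtgatc
KRT34: caattaatggTATAAAaggactgcagagga
HSPB6: cacagggcgcacTATAAAtgagcggctgcg
AFP: gcctgaaaagagTATAAAagaatttcagca

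Forkhead words, the kind FOXA2 binds, were found in 3 promoters. The word TGTTTAC was in 1 of the 30 promoters, the related word TGTTTGC in 1 and a further forkhead word TATTTAC in 1, which makes 10% together, against 4.93% at 3 to 10 FPKM, 5.70% of all expressed genes and 9.62% of all promoters. They lay 112 bases before the start in ACPP (chr3:132317284-132317312, plus strand), 130 before the start in XDH (chr2:31414855-31414883, minus strand) and at base 42 after the start in MPP4 (chr2:201698595-201698614, minus strand), shown here with the word in capitals.
ACPP: ttacatgacatTATTTACataccaaacct
XDH: ctgtgtgtgatTGTTTGCacttccttgat
MPP4: agcaacatgcaTGTTTACag

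Of the other words, TTTGAA was in 7 of the 30 promoters (23.3%, against 9.87% at 3 to 10 FPKM and 15.4% of all promoters), the AP-1 word TGACTCA in 2 (6.67%, against 2.98% and 4.92%) and the cAMP response element TGACGTCA in 2 (6.67%, against 3.67% and 1.98%). The E2F word TTCCCGC and the other E2F word TTGGCGC were both in 1 promoter, that of SH3GL2 (3.33%, against 13.3% and 9.33% for either word), and the exact serum response element of SRF in 0, against 0.0366% of all promoters. A match in these 300 bases is a description of the sequence and no evidence of binding. RefSeq gives 1 start here, which may not be the start used in these cells.

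**Figure D1:**
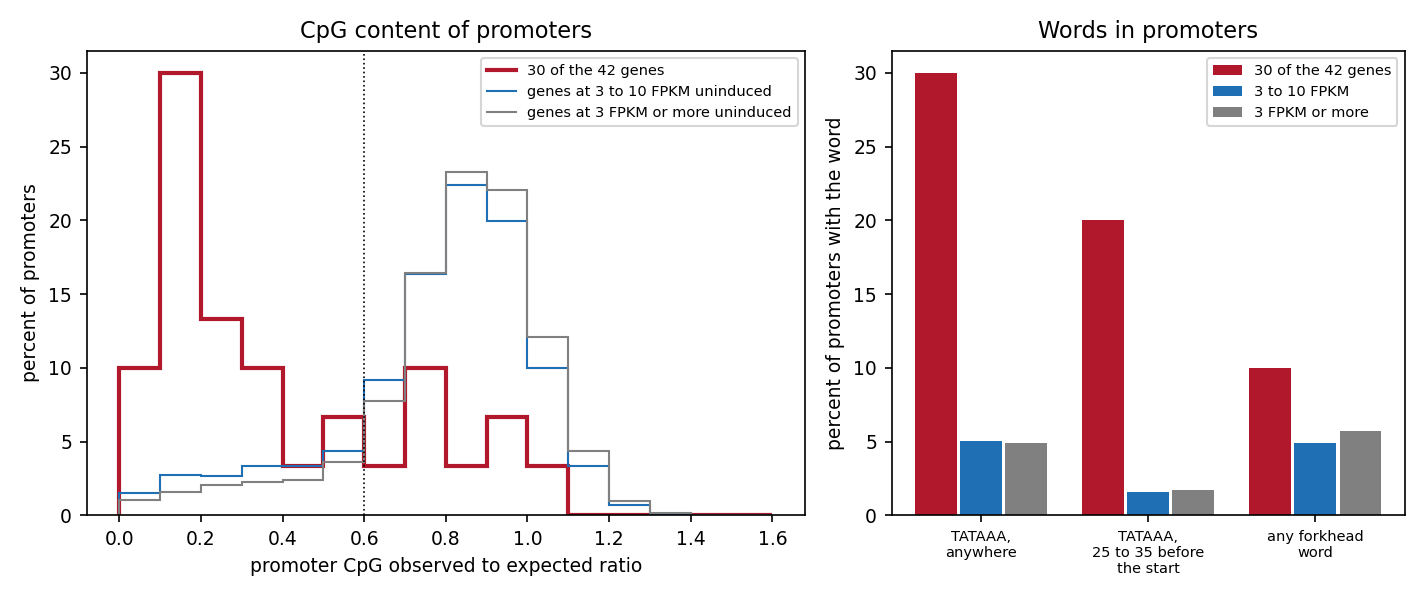
Left, share of promoters (percent) by CpG observed to expected ratio for 30 of the 42 genes, for genes at 3 to 10 FPKM uninduced and for all genes at 3 FPKM or more; the dotted line marks 0.6. Right, share of promoters (percent) holding TATAAA anywhere, TATAAA 25 to 35 bases before the start, or any of the 3 forkhead words: TATAAA was in 30% of the promoters of the 30 genes and in 4.89% of all expressed genes. The window of 25 to 35 bases was chosen after sequences had been seen.

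The 42 genes were weakly expressed before induction. Their median was 4.78 FPKM uninduced and 0.681 FPKM induced, where the 10109 expressed rows had medians of 22.8 and 23.0 FPKM. Uninduced, 4 of the 42 reached 10 FPKM, 15 lay from 5 up to 10 FPKM, and 23 were lower. As shares of all expressed rows at those levels, 3.19% of the 722 rows between 3 and 5 FPKM met the rule, 0.963% of 1558 rows between 5 and 10 FPKM, 0.0533% of 3754 rows between 10 and 30 FPKM, 0.0669% of 2991 rows between 30 and 100 FPKM, and 0 of 1084 rows above that. In all, 0.415% of the expressed rows met it. The reverse pattern, under 1 FPKM uninduced and 3 FPKM or more induced, was met by 153 rows under the same exclusions.

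The intervals limit the reading of these values. In 29 of the 42 genes, or 69.0%, the uninduced interval reached 0, against 33.9% of all expressed rows. The distance from the value to its upper bound was 117% of the value in the median gene, against 85.3% in the median expressed row. Neither comparison was made at equal levels, and the 42 genes were lower uninduced than the expressed rows. The induced upper bound was at 1 FPKM or more in 33 of the 42, and only TRBC2 and ESM1 had an uninduced lower bound of 3 FPKM or more, so the label of a gene switched off rests mostly on point values. The intervals did not overlap in 5 of the 42 genes: TRBC2, ESM1, VGF, ADRA1D and KRT34. Among all 14319 rows kept at 1 FPKM or more in either column, 0.454% were lower by that criterion, and among the 10109 expressed rows 0.554% were. When only the interval of the difference had to exclude 0, which 1.11% of the kept rows met on the lower side, FCRLA and HPX were added, giving 7 of 42.

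**Figure D2:**
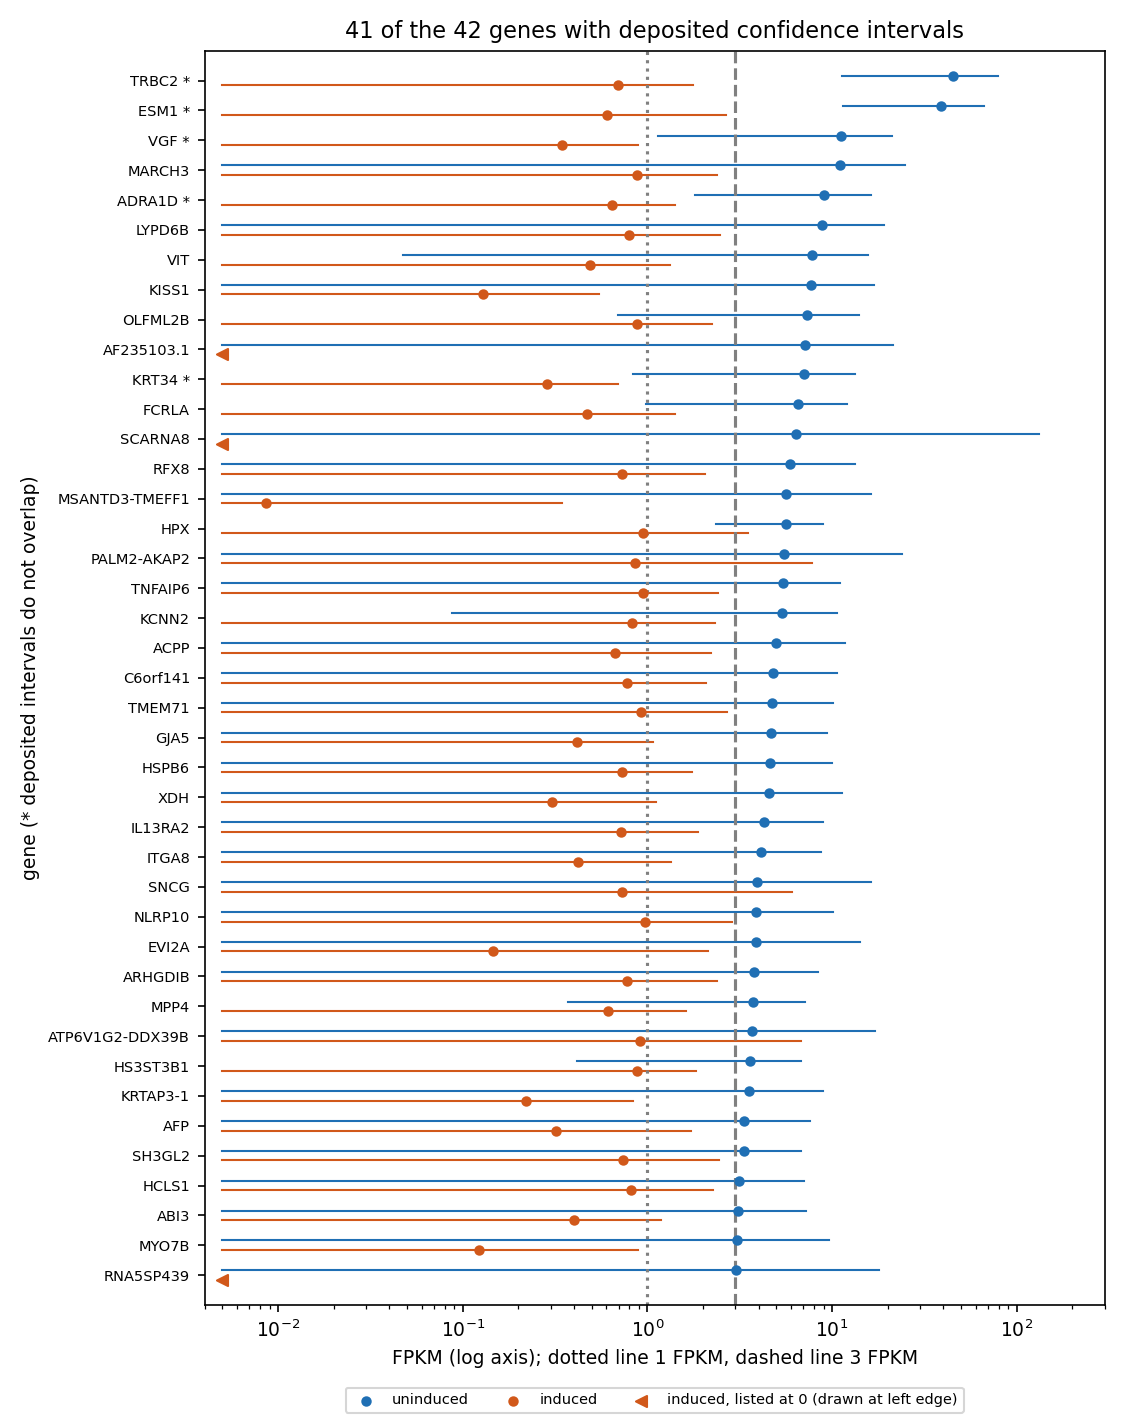
FPKM (log axis) of 41 of the 42 genes in the uninduced (blue) and the induced column (orange), with lines for the deposited confidence intervals, ordered by the uninduced value; intervals reaching 0 run to the left edge, and dotted and dashed lines mark 1 and 3 FPKM. The intervals of the 5 starred genes do not overlap, and 32 of the 41 induced intervals reach 1 FPKM or more.

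On the log2(FPKM + 1) scale, which understates differences of low values, the 42 genes differed by -4.78 to -1.19, with a median of -1.85, where all kept rows had a median of 0.05. The thresholds alone place every gene at least 2-fold lower on that scale, as 6.03% of the kept rows were. The ratio of the uninduced to the induced value had a median of 8.10 over the 39 genes above 0 induced, and was lowest in HCLS1, at 3.86. At the edge of the rule, RNA5SP439, MYO7B and ABI3 were just inside at 3.02, 3.06 and 3.08 FPKM uninduced, while VPS9D1-AS1, CGA and FAM46B were just outside at 2.94, 2.93 and 2.89 FPKM. NLRP10, HPX and TNFAIP6 were just inside at 0.968, 0.951 and 0.943 FPKM induced, while TMSB15A, APCDD1L-AS1 and SAPCD1-AS1 were just outside at 1.02, 1.03 and 1.13 FPKM.

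**Figure D3:**
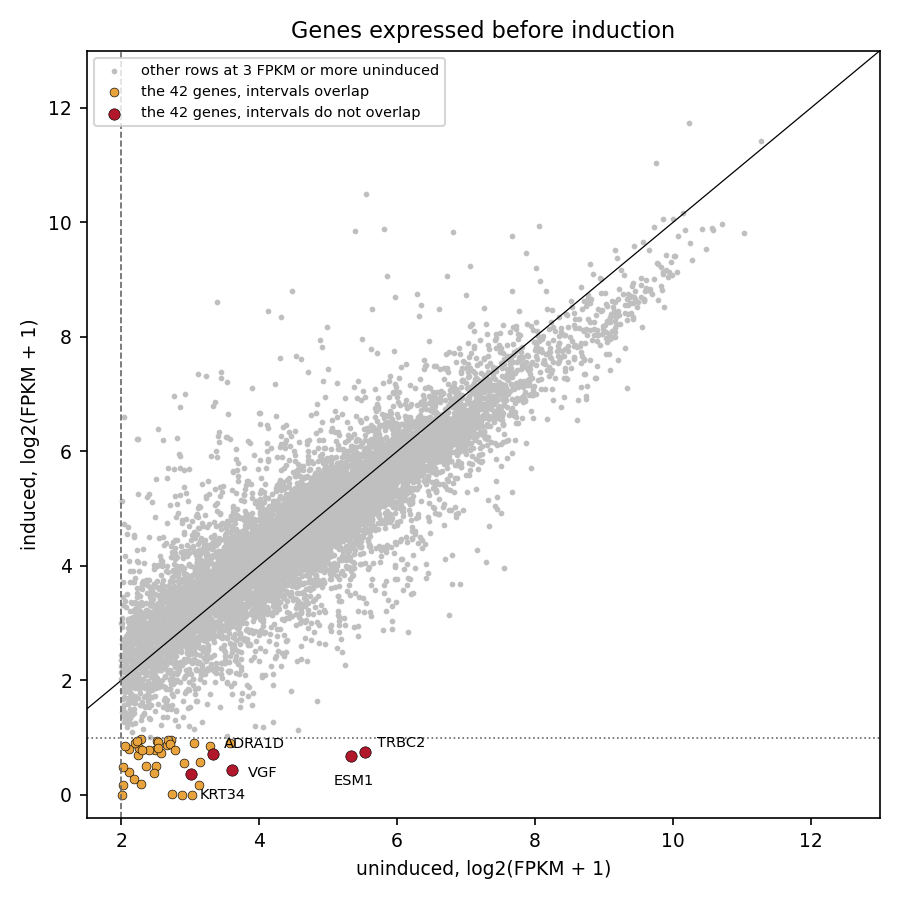
Induced against uninduced log2(FPKM + 1) for the 10109 expressed rows (grey), with the 42 genes coloured by whether their deposited intervals overlap; the diagonal marks equal values and the dashed and dotted lines the thresholds of 3 and 1 FPKM. TRBC2 and ESM1 stand to the right of the other 40, which were at 11.2 FPKM or less uninduced.

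Secreted proteins and matrix proteins formed 9 of the 42 genes, and 2 of these fell, ESM1 and VGF. ESM1 (chromosome 5, 54273692 to 54338672, hg19), a secreted proteoglycan also called endocan, fell from 39.1 FPKM (11.5 to 66.7) to 0.602 FPKM (0 to 2.65). The uninduced value was 65.0 times the induced one, the nearest bounds were 4.34 times apart, and the log2 difference was -4.65. VGF (chromosome 7, 100805790 to 100808874), a neuropeptide precursor of the granin type, fell from 11.2 FPKM (1.14 to 21.2) to 0.346 FPKM (0 to 0.890). Its ratio was 32.3 and its nearest bounds were 1.28 times apart. The bounds of VGF nearly touch, while those of ESM1 are well apart.

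KISS1, the precursor of kisspeptin peptides, was at 7.71 FPKM uninduced (0 to 16.8) and 0.129 FPKM induced (0 to 0.546), the ratio of 59.7 being close to that of ESM1 although its intervals overlap. VIT, or vitrin, a matrix protein, was at 7.82 and 0.487 FPKM, and OLFML2B, an olfactomedin-domain protein of the extracellular matrix, at 7.33 and 0.877 FPKM. TNFAIP6, a hyaluronan-binding protein induced in inflammation, was at 5.44 and 0.943 FPKM. In these 4 genes the intervals overlap, and the uninduced lower bound was above 0 in VIT and OLFML2B.

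The last 2 secreted proteins, HPX and AFP, are products of liver cells. HPX, or hemopexin, which binds free haem, was at 5.63 FPKM uninduced (2.35 to 8.90) and 0.951 FPKM induced (0 to 3.50). AFP, the fetal counterpart of albumin and a gene with known FOXA sites, was at 3.34 FPKM (0 to 7.56) and 0.318 FPKM (0 to 1.71). In a list of 24 liver-type secreted proteins these 2 were the only genes that met the rule, 8 were kept, and the median difference of those 8 was 0.52, against 0.05 for all kept rows. FGB, the fibrinogen beta chain, rose from 0.289 to 44.2 FPKM, and 0 fell. CP, or ceruloplasmin, and F10, coagulation factor X, were at 3.92 and 5.47 FPKM and at 3.92 and 6.47 FPKM.

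Receptors, channels and other surface proteins formed 7 of the 42 genes. ADRA1D (chromosome 20, 4201329 to 4229721), the alpha-1D adrenergic receptor for noradrenaline and adrenaline, fell from 9.08 FPKM (1.81 to 16.3) to 0.642 FPKM (0 to 1.41). Its ratio was 14.1, with the nearest bounds 1.28 times apart. The other 6 had overlapping intervals. LYPD6B, a GPI-anchored protein of the Ly6 family, was at 8.81 and 0.798 FPKM, and KCNN2, a calcium-activated potassium channel, at 5.35 and 0.828 FPKM. GJA5, or connexin 40, a gap junction protein of atrial muscle and arteries, was at 4.68 and 0.418 FPKM. IL13RA2, a decoy receptor for interleukin 13, was at 4.27 and 0.720 FPKM. ITGA8, an integrin alpha chain that pairs with beta 1, was at 4.11 and 0.419 FPKM, and EVI2A, a membrane protein encoded within an intron of NF1, at 3.87 and 0.145 FPKM. Reads of EVI2A may not be separated from those of NF1 and EVI2B, whose spans it shares.

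Genes best known from blood cells formed 5 of the 42. TRBC2 (chromosome 7, 142498725 to 142500432), annotated as a constant segment of the T cell receptor beta chain, fell from 45.3 FPKM (11.3 to 79.3) to 0.691 FPKM (0 to 1.76). This was the highest uninduced level among the 42. The log2 difference was -4.78, the ratio 65.6, and the nearest bounds were 6.40 times apart. FCRLA, an Fc receptor-like protein of B cells, was at 6.54 FPKM (0.988 to 12.1) and 0.469 FPKM (0 to 1.42). ARHGDIB, a signalling protein of leukocytes, was at 3.80 and 0.773 FPKM, HCLS1, a cortactin-like protein of haematopoietic cells, at 3.14 and 0.813 FPKM, and ABI3, an adaptor of the WAVE complex, at 3.08 and 0.402 FPKM.

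Most other lymphocyte genes were at or near 0 in both columns. Of 20 antigen receptor and lymphocyte genes, 14 were listed at 0 in both columns, among them TRBC1, CD3E, CD3G, LCK and CD247, and TRBC2 alone was at or above 3 FPKM in either column. The TRBC1 row used lies on a patch sequence of the genome, not on chromosome 7 itself. Whether reads of TRBC1 and TRBC2 were told apart is not known. TRAC, the alpha chain segment, was at 0.0679 and 0.0292 FPKM, and CD3D at 0.0865 FPKM and listed at 0. CD4, which macrophages also carry, was at 0.423 and 1.71 FPKM. The 10 immune markers, with CD3E, MS4A1, NKG7 and TYROBP listed at 0 in both columns, summed to 1.63 FPKM uninduced and 3.68 FPKM induced. The 2 immune markers that were kept had a median log2 difference of 0.68. The 10 endothelial markers, with PECAM1, CDH5, KDR and ERG listed at 0 in both columns, summed to 2.95 and 0.747 FPKM. The 1 endothelial marker that was kept had a log2 difference of -0.88. ESM1, a gene often used as an endothelial marker, was at 39.1 and 0.602 FPKM, and the cells it came from were not tested. In bulk samples, fewer cells that express a gene and less RNA per cell cannot be told apart.

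All 15 fibroblast markers were kept, with sums of 5304 FPKM uninduced and 3475 FPKM induced. Of these, 4 were at least 2-fold lower and 2 at least 2-fold higher, with a median log2 difference of -0.35. FAP alone of them fell by separate intervals, from 36.8 to 3.84 FPKM, where 0.454% of all kept rows fell. The 10 keratinocyte and epithelial markers summed to 16.7 and 12.6 FPKM, of which KRT10 was 16.1 and 10.6 FPKM. The 10 melanocyte and neural markers summed to 0.990 and 2.24 FPKM, and the 10 fat and muscle markers to 0.0490 and 0.307 FPKM. None of these lists held one of the 42 genes.

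The keratin genes were KRT34 and KRTAP3-1, which lie 358 kb apart in the keratin region of chromosome 17. KRT34 (39533902 to 39538655), a type I hair keratin, fell from 7.08 FPKM (0.835 to 13.3) to 0.287 FPKM (0 to 0.693). The ratio was 24.7 and the nearest bounds were 1.21 times apart. KRTAP3-1, a hair keratin-associated protein, was at 3.57 FPKM (0 to 8.93) and 0.219 FPKM (0 to 0.833). Further keratin-associated genes of the region had higher levels before induction and lower ones after it without reaching 1 FPKM. KRTAP1-5, 6.70 kb from the listed locus of KRTAP3-1, fell from 59.9 FPKM (22.7 to 97.1) to 6.50 FPKM (0.0468 to 12.9). KRTAP2-3, 39.9 kb away, was at 35.7 FPKM (6.52 to 64.9) and 4.64 FPKM (0 to 9.89). KRTAP1-3 went the other way, listed at 0 uninduced and at 6.08 FPKM induced (0 to 12.2), and KRT37, beside KRT34, was at 0.0988 and 1.27 FPKM. These genes are near-identical in parts, so reads may be divided between them with uncertainty.

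Enzymes formed 4 of the 42 genes, all with overlapping intervals. MARCH3, a membrane-bound ubiquitin ligase, had the highest level of these, 10.99 FPKM uninduced (0 to 24.8) and 0.879 FPKM induced (0 to 2.39). XDH, or xanthine dehydrogenase, which makes uric acid, was at 4.56 and 0.304 FPKM. ACPP, prostatic acid phosphatase, was at 4.97 and 0.671 FPKM. HS3ST3B1, which adds 3-O-sulphate to heparan sulphate, was at 3.59 FPKM (0.414 to 6.76) and 0.874 FPKM (0 to 1.84).

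Cytoplasmic, scaffold and nuclear proteins formed 9 of the 42 genes, again all with overlapping intervals and with uninduced levels of 3.06 to 5.89 FPKM. RFX8, of the RFX transcription factors, was at 5.89 and 0.727 FPKM. HSPB6, a small heat shock protein of muscle, was at 4.63 and 0.731 FPKM, and SNCG, or gamma-synuclein, at 3.94 and 0.725 FPKM. SH3GL2, or endophilin A1, which acts in endocytosis at synapses, was at 3.33 and 0.738 FPKM, and MPP4, a scaffold protein of photoreceptors, at 3.75 and 0.614 FPKM. MYO7B, a myosin of intestinal microvilli, was at 3.06 and 0.122 FPKM, the lowest induced value of these 9. NLRP10, an NLR-family protein, was at 3.89 and 0.968 FPKM, and 2 little-described genes, C6orf141 and TMEM71, were at 4.78 and 0.773 FPKM and at 4.75 and 0.921 FPKM. SNCG shares its span with 5 other kept rows, among them ADIRF and MMRN2.

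The remaining 6 rows are not simple single genes. Read-through genes join the exons of neighbours, and their reads can belong to either neighbour. MSANTD3-TMEFF1 was at 5.65 FPKM (0 to 16.3) and 0.00855 FPKM (0 to 0.345), a ratio of 661 with overlapping intervals, while its neighbours MSANTD3 and TMEFF1 were at 60.3 and 45.9 FPKM and at 1.19 and 8.46 FPKM. PALM2-AKAP2 was at 5.51 and 0.862 FPKM, with AKAP2 at 82.7 and 85.2 FPKM and PALM2 at 1.26 and 0.132 FPKM. ATP6V1G2-DDX39B was at 3.67 and 0.915 FPKM, with DDX39B at 242 and 162 FPKM and ATP6V1G2 at 1.08 and 3.13 FPKM. The intervals of all 9 of these rows overlap between the columns. The other 3 rows, SCARNA8, a small Cajal body RNA inside HAUS6, RNA5SP439, a 5S ribosomal pseudogene, and AF235103.1, a clone name, were at 6.38, 3.02 and 7.13 FPKM uninduced and listed at 0 induced. Each shares its span with longer kept rows, and the uninduced interval of SCARNA8 ran from 0 to 132 FPKM.

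Most relatives of the 42 genes lay within 2-fold of their uninduced level. The share of them at least 2-fold lower was above that of all kept rows, 6.03%. For 37 of the 42 the genes of the same family, or the partners they share a locus or a ligand with, were tabulated after the members were known, which gave 83 distinct kept relatives in 31 families. Of the 83, 58 lay within 2-fold on the log2(FPKM + 1) scale, 14 were at least 2-fold lower and 11 at least 2-fold higher, and their median difference was -0.23. In 28 of the 31 families at least 1 relative was more highly expressed uninduced than the gene that met the rule. The rule takes mostly weakly expressed genes, and the highest relative was compared, so the selection itself favours this count. GJA1, or connexin 43, the main connexin of fibroblasts, was at 88.5 and 137 FPKM beside GJA5. ARHGDIA was at 319 and 214 FPKM beside ARHGDIB, CTTN, or cortactin, at 127 and 105 FPKM beside HCLS1, and ABI1 and ABI2 at 39.6 and 32.2 FPKM and at 49.8 and 37.7 FPKM beside ABI3. The signalling chains IL13RA1 and IL4R were at 38.7 and 32.9 FPKM and at 23.1 and 15.9 FPKM beside IL13RA2. Of 11 kept integrin alpha chains beside ITGA8, 3 were at least 2-fold lower (ITGA3, ITGA2 and ITGAE), 1 at least 2-fold higher (ITGA1, at 8.61 and 43.7 FPKM with overlapping intervals), and 0 rose or fell.

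Of the relatives, 6 fell without reaching the floor, and 0 rose, where 0.454% of kept rows fell and 0.726% rose. SCG5, a chaperone of prohormone processing in the granin list with VGF, fell from 143 FPKM (60.5 to 225) to 18.5 FPKM (0 to 38.3). HAS2, the hyaluronan synthase whose product TNFAIP6 binds, fell from 61.5 FPKM (27.5 to 95.5) to 12.6 FPKM (4.26 to 21.0). MARCH4, another membrane-bound ubiquitin ligase, fell from 22.5 FPKM (9.39 to 35.7) to 4.08 FPKM (0.431 to 7.72), and HS3ST3A1, the sister enzyme of HS3ST3B1, from 17.4 FPKM (4.97 to 29.9) to 1.41 FPKM (0 to 2.93). KRTAP1-5, given above, was also among them. Paired genes beside each other also had low induced values with overlapping intervals: FCRLB was at 14.3 and 1.30 FPKM beside FCRLA, LYPD6 at 10.6 and 2.95 FPKM beside LYPD6B, and EVI2B at 2.35 and 0.207 FPKM beside EVI2A.

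**Figure D4:**
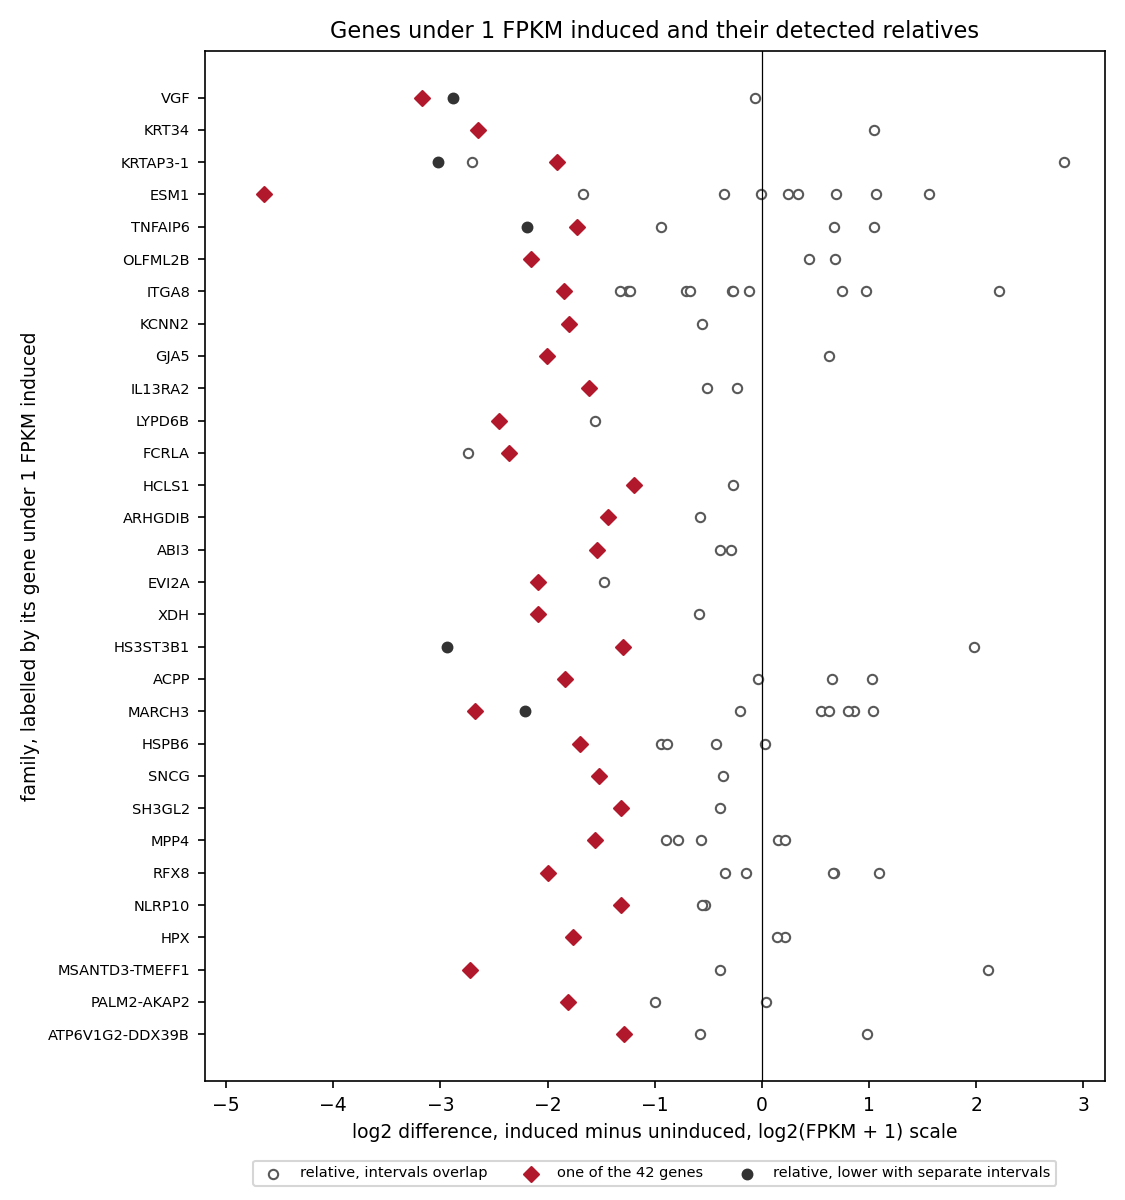
Difference in log2(FPKM + 1), with the uninduced value subtracted, of each gene that met the rule (red diamonds) and of its kept relatives (circles; filled where the deposited intervals do not overlap), for 30 of the 31 families with a kept relative. Of the 81 relatives shown 57 lie between -1 and 1, and the 5 filled circles are SCG5, KRTAP1-5, HAS2, HS3ST3A1 and MARCH4.

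Within 100 kb of their spans lay 119 distinct kept rows at 1 FPKM or more uninduced that did not meet the rule. Of these, 55.5% were below 0, 10.1% were at least 2-fold lower, and the median difference was -0.09, against 50.2%, 6.53% and -0.003 for all 13207 rows at that level. The 119 include rows that share the span of one of the 42 genes, such as EVI2B with EVI2A. Reads of such rows may not be separated, so these shares are not independent of the 42 genes. The neighbours that fell were KRTAP1-5 and EHD3, an endocytic recycling protein 64.9 kb from XDH, which fell from 77.7 FPKM (36.9 to 118) to 20.1 FPKM (7.94 to 32.4). The neighbour that rose was NMI, an interferon-inducible protein 67.5 kb from TNFAIP6, from 11.9 FPKM (2.02 to 21.8) to 55.0 FPKM (22.6 to 87.3). Chromosome 2 held 7 of the 42 genes, chromosome 17 held 6, chromosome 1 held 5 and chromosome 9 held 4, which is 1.02%, 0.968%, 0.478% and 0.969% of the expressed rows there. Apart from KRT34 and KRTAP3-1, only FCRLA and OLFML2B, 269 kb apart on chromosome 1, lay within 1 Mb of each other.

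Some gene lists of fibroblast signalling and structure held 1 of the 42 genes. Over all expressed rows, 0.415% met the rule. VGF was the only one of 25 neuropeptide genes, of which 7 were kept and 2 fell, VGF and SCG5 (median -0.91); STC1, or stanniocalcin, was at 66.3 and 30.2 FPKM. ESM1 was the only one of 24 vessel-associated genes, of which 12 were kept, 1 fell, ESM1, and 1 rose (median 0.34); FLT1, a receptor of vascular endothelial growth factor, was at 99.4 and 94.0 FPKM. ADRA1D was the only one of 39 G protein-coupled receptors, of which 24 were kept, 2 fell, ADRA1D and OXTR, and 1 rose (median -0.01); LPAR1 and OXTR were at 152 and 160 FPKM and at 119.7 and 11.8 FPKM. KRT34 was the only one of 27 cytoskeletal genes, of which 15 were kept and 2 fell, KRT34 and KRTAP1-5 (median -0.80); TPM2 and TAGLN were at 587 and 351 FPKM and at 478 and 179 FPKM. Of all kept rows, 0.454% fell and 0.726% rose, and the median was 0.05.

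No cell cycle gene on the lists reached the floor. Of 30 mitosis genes, all kept, 28 were at least 2-fold lower and 13 fell (median -2.17), and 0 met the rule. Of 30 DNA replication and repair genes, all kept, 24 were at least 2-fold lower and 0 fell (median -1.24). Their summed levels were 1690 and 349 FPKM for mitosis and 1171 and 438 FPKM for replication, so they moved with the same comparison, and their part in the values of the 42 genes was not tested. None of the 15 kept cytokines, 27 kept early genes responsive to ERK signalling, 24 kept ion channels, 24 kept adhesion and guidance genes or 29 kept developmental factors met the rule or fell, and their medians were 1.11, -0.03, -0.06, 0.07 and 0.26. In the same order 1, 0, 2, 0 and 2 of them rose, where 0.726% of all kept rows rose. Among the cytokines 8 were at least 2-fold higher and 1 at least 2-fold lower. KCNN2, the channel among the 42, was not on the channel list.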

How the data were processed

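The labels describe RNA-seq of 2 uninduced and 2 induced samples with an unstranded TruSeq kit, so a gene cannot be separated from an overlapping antisense gene. TopHat and hg19 stand in the submitters' processing notes, while the TopHat version, the program behind the expression values and the use of each column's samples remain not given in the sources used here, so none is named. The authors deposited FPKM values with lower and upper bounds, per the file headers; the level of these intervals is not stated, and the read depth behind them is unknown. Another condition's 3 value columns were not used. Starts of loci are counted from 0 in the table and were raised by 1. Rows of overlapping genes can carry the same joint locus, as SCARNA8 and HAUS6 do. The hg19 positions, spans and distances given are therefore those of loci, which can be longer than the gene.

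Rows with at least 1 FPKM in either column were kept. A row rose or fell when its intervals were separate, except that 3 kept rows with malformed bounds were never called. Log2 differences use a pseudocount of 1. A test per sample with limma had been planned and could not be fitted to 1 column per group. Promoters came from RefSeq (GRCh38.p14) by symbol or synonym. Selection and calls were tested on simulated data (pandas 2.3.3, numpy 2.4.6). The members, lists and settings were chosen with earlier results of these data known. Of the 42 genes 41 were named, with the 3 nearest on each side of each threshold and up to 2 non-members of a list by uninduced level. Relatives, role groups, named neighbours, called list genes and the TATA position window were chosen after names, values or sequences had been seen. Some results are not reported here. Alternatives were other thresholds, scaling to equal FPKM sums, quantile normalization, other pseudocounts, the interval of the difference, 1 row per symbol and unshared spans.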

Additional observations from a re-analysis of the deposited data

How the results depend on the processing

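The number of genes under the rule moved with its thresholds: 19 with 5 FPKM and 70 with 2 FPKM required uninduced, 17 with 0.5 FPKM and 104 with 2 FPKM allowed induced. With the columns scaled to the same FPKM sum 33 genes met it, losing 9, among them ATP6V1G2-DDX39B, HPX, HS3ST3B1, MARCH3, NLRP10, OLFML2B, TMEM71 and TNFAIP6, and after quantile normalization 58 did, the 42 and 16 more. Scaling moved the median of all kept rows from 0.05 to 0.23. The 5 genes whose intervals do not overlap were the same under both. The median log2 difference of the 42 genes was -2.97 with a pseudocount of 0.1, -2.35 with 0.5 and -2.03 after quantile normalization. No paired analysis was possible because no column carries a replicate number, and for the same reason no replicate could be left out. By the interval of the difference, 7 genes were separate instead of 5.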

Other observations

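The left-out prefixes removed 41 further rows that were at 3 FPKM or more uninduced and under 1 FPKM induced. Of these 16 were small nucleolar RNAs, 9 were clone-named transcripts starting with RP1 to RP13 and 7 were U RNA copies, and 26 of the 41 were listed at 0 induced. Pregnancy-specific glycoprotein genes gave 2 rows: PSG1 was at 6.77 FPKM (interval 0.244 to 13.3) and 0.447 FPKM (0 to 1.44), and PSG6 at 3.62 FPKM (0 to 7.56) and 0.262 FPKM (0 to 0.918). Intervals did not overlap in 7 of the 41, each listed at 0 induced with an interval of 0 to 0, among them MIR369 and 2 U6 copies that were all at 9.85 FPKM uninduced. Another of the 7, RNU6-1315P, was at 13694 FPKM uninduced (13690.5 to 13698). This row also enters the FPKM sums used for scaling.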
